A study of Mus musculus with 48 samples.

Results

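The subunits of respiratory complex III, complex IV and ATP synthase that are encoded in the nucleus were followed through the differentiation of wild-type (WT) cells and of cells without the nucleosome-binding proteins HMGN1 and HMGN2. The members are all genes whose symbol starts with Uqcr (complex III), Cox4i, Cox5, Cox6, Cox7 or Cox8 (complex IV), or Atp5 (ATP synthase), and the 7 symbols that end in -ps were left out. This gave 45 of the 55450 genes in the deposited tables, 8 for complex III, 19 for complex IV and 18 for ATP synthase. Of these, 44 are annotated as protein coding and Cox6c2 as a pseudogene. The rule uses names only, and it also takes in proteins that are not structural subunits, such as Cox7a2l, which helps join complexes III and IV into supercomplexes.

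Complex III passes electrons from ubiquinol to cytochrome c, complex IV passes them on to oxygen, and both pump protons out of the mitochondrial matrix. ATP synthase lets the protons back in and makes ATP. Adipocytes that brown gain mitochondria with much respiratory chain and dissipate part of the proton gradient as heat through Ucp1. Several complex IV subunits come in a form found in most tissues and a form known from heart, skeletal muscle or brown fat, such as Cox7a2 and Cox7a1, Cox8a and Cox8b, and Cox6a1 and Cox6a2.

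RNA was sequenced from WT mice of the C57BL/6 strain and from double knockout mice (DKO, Hmgn1-/- Hmgn2-/-). One set of cells was white preadipocytes of inguinal white adipose tissue (iWAT) from adult mice, sampled at days 0, 3, 6 and 9 of an induced browning, by the end of which the labels call them brown-like adipocytes. The other was mouse embryonic fibroblasts (MEFs) from mid-gestation embryos, used after a limited number of passages and sampled at days 0, 4, 8 and 12 of a differentiation into adipocytes. All induced cultures of both genotypes received insulin, dexamethasone, IBMX, T3 and rosiglitazone, followed by a maintenance medium with insulin and T3. The study's methods give the first medium for 4 days to preadipocytes and for 8 days to MEFs. The courses of the cell types thus also differ in schedule, and effects of time and of the change of medium cannot be told apart. Both genes are inactivated in all cells of the mice, so an effect of the adipocyte itself and one of the animal it came from cannot be told apart. Each of the 16 groups has 3 libraries, 48 in all. The study calls the libraries of a group biological replicates. Whether each came from its own animals or its own culture is not given in the sources used here, and p-values measure the spread between these libraries.

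Depth, the sum of all expected counts, was 19809397 to 36006696 per preadipocyte library and 18962483 to 33083213 per MEF library. Levels are given as CPM, counts scaled by library size with edgeR's TMM factors. Hmgn2 had at most 10 counts in any DKO library against at least 744 in WT libraries of preadipocytes, and at most 3 against at least 1046 in MEFs. Hmgn1 kept between 1571 and 3493 counts in DKO libraries, so its count per gene does not check the label. A list of 16 adipocyte markers summed to between 207 and 963 CPM in preadipocytes at day 0 and to between 34798 and 53548 CPM at day 9. A list of 17 brown adipocyte markers summed to between 51.3 and 77.7 CPM at day 0 and to between 641 and 1693 CPM at day 9. In MEFs at day 0 the 16 adipocyte markers summed to between 1049 and 1268 CPM in WT and between 1687 and 2426 CPM in DKO libraries, without overlap. At day 12 they summed to between 23477 and 37937 CPM. The 17 brown adipocyte markers summed to between 37.2 and 53.2 CPM at day 0 and between 262 and 539 CPM at day 12 in MEFs.

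The promoters of the paired isoforms are shown first, since Cox7a1 was called between the genotypes in both cell types and Cox8b in preadipocytes at day 6. Each is the 250 bases before the transcription start in RefSeq's annotation of GRCm38.p6, written 5′ to 3′ on the gene's own strand, with each CG pair in capitals.
Cox7a1 (chr7:30183921-30184170, plus strand): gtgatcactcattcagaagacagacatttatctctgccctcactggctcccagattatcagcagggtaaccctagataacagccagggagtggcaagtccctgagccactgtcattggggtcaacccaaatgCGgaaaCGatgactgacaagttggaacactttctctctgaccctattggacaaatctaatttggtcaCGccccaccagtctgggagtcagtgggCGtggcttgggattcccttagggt
Cox8b (chr7:140900447-140900696, minus strand): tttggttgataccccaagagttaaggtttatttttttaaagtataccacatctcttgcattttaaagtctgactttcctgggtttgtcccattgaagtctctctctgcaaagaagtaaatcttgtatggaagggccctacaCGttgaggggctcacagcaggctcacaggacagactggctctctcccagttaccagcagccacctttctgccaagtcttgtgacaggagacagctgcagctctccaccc
Cox7a2 (chr9:79759854-79760103, minus strand): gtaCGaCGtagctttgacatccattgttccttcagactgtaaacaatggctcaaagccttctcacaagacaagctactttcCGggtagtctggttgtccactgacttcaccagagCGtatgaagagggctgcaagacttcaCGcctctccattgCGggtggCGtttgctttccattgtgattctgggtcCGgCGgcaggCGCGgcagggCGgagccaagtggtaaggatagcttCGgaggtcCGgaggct
Cox8a (chr19:7217617-7217866, minus strand): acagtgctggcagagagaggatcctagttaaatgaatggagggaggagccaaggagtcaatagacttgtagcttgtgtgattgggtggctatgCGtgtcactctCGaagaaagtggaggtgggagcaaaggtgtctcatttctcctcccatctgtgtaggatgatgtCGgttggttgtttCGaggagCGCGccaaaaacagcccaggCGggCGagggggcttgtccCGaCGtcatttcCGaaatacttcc
The windows of the tissue forms hold few CG pairs, with 4 in Cox7a1 and 1 in Cox8b, and 44.4% and 18.8% of all promoters in the same table hold no more. Those of the widely expressed forms hold 14 (Cox7a2) and 11 (Cox8a), against a median of 13 over the 31 members with an entry and of 6 over all promoters. The share of promoters with no more CG pairs is 72.7% for Cox7a2 and 66.5% for Cox8a. GENCODE places the starts of Cox7a1 (30184144) and Cox7a2 (79759878) inside these windows, so their last bases lie within its genes.

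The members were counted together first. In WT preadipocytes they took 0.401% ± 0.0274 (SD, n = 3) of all counts at day 0 and 0.437% ± 0.0247 at day 3, and then 1.12% ± 0.0941 (day 6) and 1.16% ± 0.0143 (day 9). DKO preadipocytes started at 0.374% ± 0.00895 and passed through 0.541% ± 0.0496 to 1.49% ± 0.0966 at day 6 and 1.45% ± 0.188 at day 9. Most of the gain thus fell between days 3 and 6 in both genotypes, and the WT and DKO libraries did not overlap at days 3, 6 and 9. MEFs gained less. WT MEFs went from 0.345% ± 0.00328 at day 0 through 0.435% ± 0.0533 and 0.502% ± 0.0741 to 0.657% ± 0.00474 at day 12, and DKO MEFs from 0.328% ± 0.00904 through 0.513% ± 0.0507 and 0.601% ± 0.158 to 0.844% ± 0.0192. The day 8 MEF libraries were the most spread of these groups, with WT replicate 2 at 0.417% and DKO replicate 3 at 0.423%, each below the other libraries of its genotype. In the same groups the adipocyte markers summed to between 4936 and 12789 CPM in WT and between 5778 and 23020 CPM in DKO libraries. In bulk samples, fewer cells of a type and less RNA per cell cannot be told apart.

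**Figure D1:**
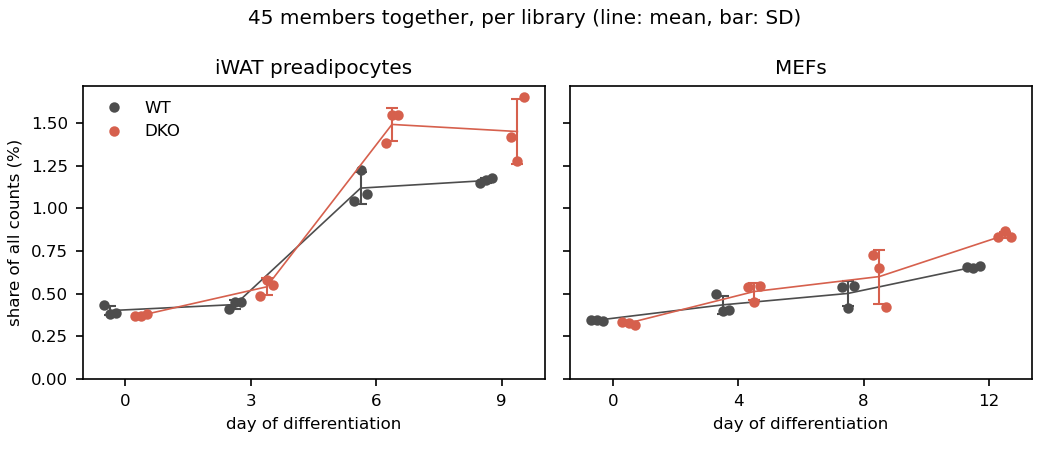
Share of all counts (%) taken by the 45 members in each library of iWAT preadipocytes (left) and MEFs (right) by day, with points for libraries, lines through the means of 3 libraries and bars for the SD. DKO libraries lie above WT libraries at days 3, 6 and 9 in preadipocytes and at day 12 in MEFs, and below or among them at day 0.

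Most members rose during differentiation. Of the 45 members, between 38 and 41 passed edgeR's filter on low counts in each comparison and were tested. Between day 0 and day 9, 35 of 41 tested members rose and none fell in WT preadipocytes by edgeR's quasi-likelihood test (adjusted p under 0.05 and a fold of at least 1.5), where 26.6% of all tested genes were called higher and 26.7% lower. In DKO preadipocytes 37 of 41 rose and 1 fell (27% of all genes higher, 28.6% lower). Between day 0 and day 12, 32 of 41 members rose and 1 fell in WT MEFs (15.8% of all genes higher, 14.3% lower), and 36 of 40 rose and none fell in DKO MEFs (15.4% higher, 9.41% lower). DESeq2 called 36, 38, 33 and 37 members in the same order. The median log2 fold change of the members was 1.57 (WT) and 2.08 (DKO) in preadipocytes and 0.96 (WT) and 1.53 (DKO) in MEFs, while the median of all tested genes lay between -0.01 and 0.00. These medians stayed the same with Cox8b set at its lower bound.

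Complex III had the highest medians, with log2 fold changes of 2.02 (WT) and 2.46 (DKO) in preadipocytes and 1.36 and 2.07 in MEFs, and all 8 of its members rose in each of the 4 comparisons. For complex IV the medians were 1.69, 2.22, 0.91 and 1.76, and for ATP synthase 1.38, 1.89, 0.88 and 1.49.

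Uqcrfs1, the Rieske iron-sulfur protein of complex III (chromosome 13, 30540308 to 30545362, mm10, minus strand), led the complex III genes. In WT preadipocytes it was at 48.4, 43.4 and 45.4 CPM at day 0 and at 333, 331 and 326 CPM at day 9, and in DKO preadipocytes at 42.4, 46.7 and 45.3 and 462, 437 and 558 CPM. All day 9 libraries lay far above all day 0 libraries, and the DKO libraries of day 9 were all above the WT libraries. Its log2 fold change from day 0 was 2.88 ± 0.07 (SE) in WT and 3.46 ± 0.12 in DKO preadipocytes (adjusted p = 2.61e-08 and 6.45e-06, edgeR's quasi-likelihood test). In MEFs it was 1.85 ± 0.04 in WT and 2.61 ± 0.11 in DKO cells (adjusted p = 1.51e-13 and 1.36e-05, same test). Uqcrc2, a core protein of complex III, rose by 2.46 ± 0.06 and 2.95 ± 0.12 in WT and DKO preadipocytes and by 1.42 ± 0.04 and 1.95 ± 0.09 in WT and DKO MEFs on the log2 scale (largest adjusted p = 1.52e-05, edgeR).

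In ATP synthase, the genes of the membrane-embedded c subunit took different courses. Atp5g1, Atp5g2 and Atp5g3 encode precursors that give the same mature protein. Atp5g3 rose by 1.74 ± 0.07 (WT) and 2.04 ± 0.08 (DKO) in preadipocytes and by 1.37 ± 0.04 and 1.87 ± 0.08 in MEFs on the log2 scale. Atp5g2 changed by 0.58 ± 0.06 and 0.77 ± 0.10 in preadipocytes and by 0.02 ± 0.05 and 0.42 ± 0.09 in MEFs, and only the change in DKO preadipocytes passed both thresholds. Atp5g1 changed by 0.45 ± 0.06, 0.56 ± 0.11, 0.36 ± 0.05 and 0.87 ± 0.09 in the same order and passed both only in DKO MEFs. Per kb of exon, Atp5g3 stood at 44.7 ± 3.21 CPM in WT preadipocytes at day 0 (SD, n = 3), below Atp5g2 at 54.4 ± 2.92 CPM, and at 146 ± 3.01 CPM at day 9, above Atp5g2 at 79.4 ± 0.629 CPM. Atp5g1 was lowest of the genes on this scale at both days, at 11.8 ± 0.458 and 15.8 ± 0.551 CPM. On this scale the order of Atp5g2 and Atp5g3 turned over between the days, with the gaps larger than the SDs. The SDs do not cover error in the exon length. In CPM not scaled by length, the mean of Atp5g3 was above that of Atp5g2 in WT preadipocytes at day 0 (97.4 against 91.1) and at day 9 (319 against 133).

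Per kb of exon, the members that led at day 9 in WT preadipocytes were Atp5b, the catalytic beta subunit of ATP synthase, at 597 ± 2.97 CPM, and Cox6b1, a complex IV subunit facing the intermembrane space, at 565 ± 6.80 CPM. Cox4i1, which helps regulate complex IV, followed after Atp5a1 at 401 ± 14.8 CPM. This order rests on the merged exons of all annotated transcripts, 4237 bases for Atp5b and 708 for Cox6b1. The SDs do not cover error in these lengths. At the other end, Cox6b2, known from testis, was at 3.04 ± 0.314 CPM and Cox6a2 at 1.62 ± 0.158 CPM. Cox8c, Cox7b2 and a second gene identifier with the symbol Atp5o had at most 2 counts in any library, and Cox6c2 at most 9.

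Some members kept their level or fell. Cox6b2 stood at 3.24, 7.57 and 6.67 CPM at day 0, 23.8, 12.3 and 13.2 CPM at day 3 and 3.02, 3.71 and 3.36 CPM at day 9 in WT preadipocytes, and at 7.41, 8.21 and 10.1, 17.8, 13.2 and 14.7 and 4.01, 4.92 and 3.35 CPM in DKO preadipocytes. It was highest at day 3 in both genotypes, and its day 9 libraries lay below its day 3 libraries without overlap. From day 0 to the last day its log2 fold change was -0.75 ± 0.31 (WT) and -1.04 ± 0.21 (DKO) in preadipocytes and -0.71 ± 0.15 (WT) and -1.25 ± 0.52 (DKO) in MEFs, with adjusted p = 0.0555, 0.00374, 9.60e-04 and 0.111 by edgeR's test. It was the only member that fell, and did so in DKO preadipocytes and WT MEFs. Mean levels in MEFs also peaked at the first sampled day after induction, at 16.4 ± 2.18 CPM (WT) and 26.7 ± 9.64 CPM (DKO; SD, n = 3), from 5.71 ± 0.665 and 8.95 ± 6.66 CPM at day 0.

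Cox4i2, the form of subunit 4 known for its induction at low oxygen, dipped and came back in preadipocytes. In WT cells its mean went from 3.84 ± 0.199 CPM (SD, n = 3) before induction through 1.45 ± 0.317 and 1.47 ± 0.350 CPM to 4.19 ± 1.10 CPM by day 9, and it was 3.77 ± 1.07, 1.32 ± 0.498, 2.18 ± 0.507 and 4.12 ± 0.563 CPM in DKO cells. The change from day 0 to day 9 did not pass the test in either genotype (log2 fold change 0.16 ± 0.22 and 0.15 ± 0.25). Cox7a2l rose by 0.71 ± 0.08 (WT) and 0.84 ± 0.10 (DKO) in preadipocytes, where it passed both thresholds, and changed by 0.09 ± 0.04 and 0.26 ± 0.07 in MEFs, where it did not.

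The course between the ends differed between the cell types. Among the 40 members above 3 counts on all days in preadipocytes, the median ratio of the mean to that of day 0 was 1.04 at day 3, 2.61 at day 6 and 2.93 at day 9 in WT cells, and 1.33, 4.00 and 4.14 in DKO cells. In MEFs the median ratios were 1.11, 1.38 and 1.89 in WT cells (38 members) and 1.43, 1.80 and 2.66 in DKO cells (39 members). The mean was highest at day 9 for 27 (WT) and 25 (DKO) members of preadipocytes, at day 6 for 12 and 14, and at day 3 for Cox6b2 alone. In MEFs it was highest at day 12 for 34 of 38 (WT) and 35 of 39 (DKO) members. These are descriptions of means, with no test between neighbouring days.

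**Figure D2:**
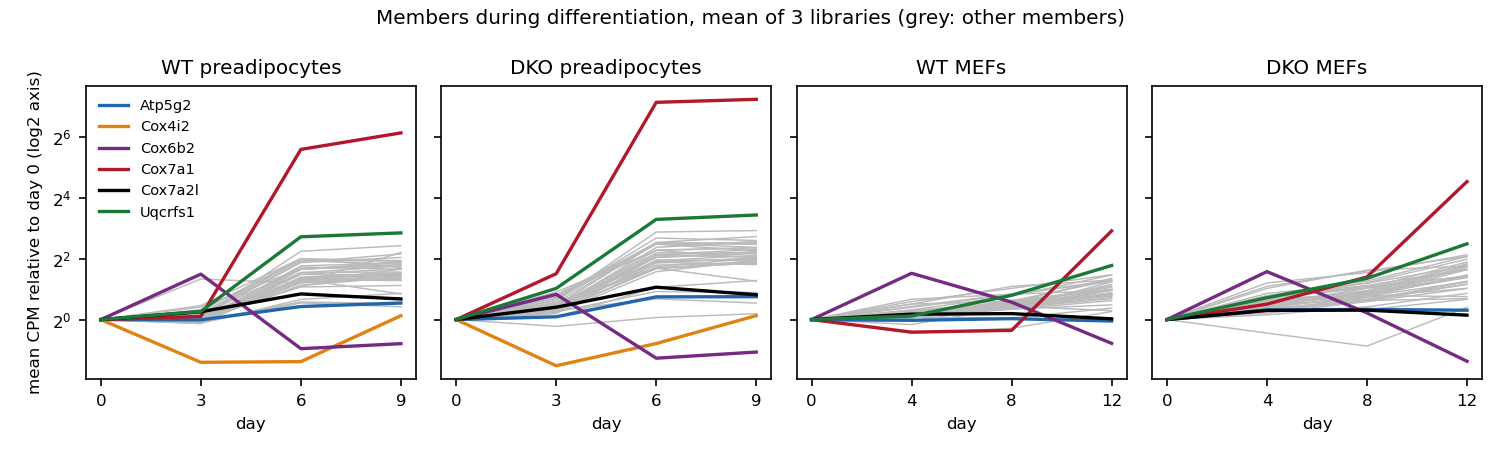
Mean CPM of each member relative to day 0 (log2 axis, 3 libraries per mean) by day in WT and DKO preadipocytes and MEFs, for members above 3 counts per library on all days. Cox7a1 leaves the others behind, with a ratio of 70.4 (WT) and 151 (DKO) at day 9 in preadipocytes, and Cox6b2 peaks at the first day after induction and then drops.

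Loss of Hmgn1 and Hmgn2 was compared with WT at each day on its own. At day 0 no member was called in preadipocytes, where 0.218% of all tested genes were, and 32 of 40 tested members were lower in DKO cells with a median log2 fold change of -0.08. In 6 members all DKO libraries were below all WT libraries (7.08% of all genes were lower in this way), and 4 members had an unadjusted p under 0.05. DESeq2 and limma-voom called none either. Cox6b2 lay at the other end, with 0.55 ± 0.32 (SE) and adjusted p = 0.719 in edgeR's test.

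The DKO effect at day 3 was not tested against that at day 0. At day 3, 37 of 39 tested members were higher in DKO preadipocytes. Their median log2 fold change was 0.26, against -0.01 over all tested genes. No member passed the test, and 0.337% of all genes did, while 25 members had an unadjusted p under 0.05 in edgeR's test and DESeq2 called 1. DKO libraries lay above all WT libraries for 27 members (11.4% of all genes). All 8 complex III members were higher, with a median of 0.40, against 0.24 for complex IV and 0.25 for ATP synthase. Uqcrfs1 was at 43.2, 61.9 and 60.2 CPM in WT and 75.9, 104 and 94.2 CPM in DKO libraries. The groups did not overlap, and its log2 fold change of 0.72 ± 0.18 (SE) missed the threshold (adjusted p = 0.176, edgeR). At this day the adipocyte markers summed to between 940 and 3514 CPM in WT and between 5236 and 7237 CPM in DKO libraries, and the brown adipocyte markers to between 76.4 and 102 CPM and between 128 and 147 CPM. Neither sum overlapped between the genotypes, and their part in the members' shift was not tested.

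At day 6 all 40 tested members were higher in DKO preadipocytes. The median log2 fold change was 0.49, against -0.01 over all tested genes, and 6 members were called higher and none lower (5.03% of all genes were called higher and 6.53% lower). With the adjusted p alone, 29 members passed, all higher (11.6% of all genes), and in 31 the DKO libraries lay above all WT libraries (21.5% of all genes). The complexes had like medians of 0.53 for complex III (2 of 8 called), 0.51 for complex IV (3 of 15) and 0.38 for ATP synthase (1 of 17). The 6 were Cox7a1, Cox8b, Uqcrc1, Uqcrc2, Cox5a and Atp5b. Leaving out WT replicate 1 lowered their number to 2, WT replicate 3 to 3 and DKO replicate 3 to 1, as did scaling by library size only, to 2. It rose to 20 when WT replicate 2 was left out and to 12 when DKO replicate 1 was.

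Cox7a1 (chromosome 7, 30184144 to 30186078, mm10, plus strand), the form of subunit 7a of muscle and brown fat, was at 38.4, 59.2 and 41.7 CPM in WT and 95.7, 102 and 122 CPM in DKO libraries at day 6. Every DKO library was above every WT library, and the log2 fold change was 1.20 ± 0.17 (SE, adjusted p = 0.00548 in edgeR's quasi-likelihood test). It was the only one of the 6 whose call held when any 1 library was left out. Cox8b (chromosome 7, 140898945 to 140900446, mm10, minus strand), the muscle and brown fat form of subunit 8, was at 2.62, 4.49 and 4.47 CPM in WT and 9.14, 6.85 and 8.95 CPM in DKO libraries. These did not overlap either, and its log2 fold change was 1.10 ± 0.23 (adjusted p = 0.0148, edgeR), a call lost without DKO replicate 3.

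Uqcrc1 and Uqcrc2, the core proteins of complex III, were at 266, 359.9 and 302 and 419, 485 and 432 CPM in WT libraries. In DKO libraries Uqcrc1 was at 429.6, 504 and 528 and Uqcrc2 at 607, 733 and 705 CPM. Both genes were higher in all DKO libraries, with log2 fold changes of 0.65 ± 0.13 and 0.61 ± 0.10 (adjusted p = 0.0121 and 0.00796, edgeR). Cox5a, a complex IV subunit on the matrix side, was at 138, 177 and 145 CPM in WT and 202, 237 and 254 CPM in DKO libraries, which did not overlap (log2 fold change 0.59 ± 0.12, adjusted p = 0.0131, edgeR). Atp5b, the catalytic subunit of ATP synthase, was at 2146, 2674 and 2289 CPM in WT and 3123, 4043 and 3817 CPM in DKO libraries, again apart (log2 fold change 0.62 ± 0.13, adjusted p = 0.0164, edgeR). These 4 log2 fold changes lie between 0.59 and 0.65, just over the fold threshold of 1.5, and Uqcrc1, Uqcrc2 and Cox5a kept their call in 3 and Atp5b in 2 of the 6 refits that leave out 1 library. Just under the threshold were Cox4i1 at 0.58 ± 0.13 and Atp5a1, the alpha subunit of ATP synthase, at 0.56 ± 0.13 (adjusted p = 0.0188 and 0.0180, edgeR).

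The smallest differences at day 6 were those of Cox7a2l (0.13 ± 0.08), Atp5j, a peripheral stalk subunit of ATP synthase (0.17 ± 0.09), Atp5g1 (0.17 ± 0.16) and Cox6b2 (0.23 ± 0.22), none of which passed the test (adjusted p = 0.271, 0.200, 0.471 and 0.487, edgeR). Cox7a2l was at 247, 280.5 and 254 CPM in WT and 274, 294 and 293 CPM in DKO libraries. Its groups overlapped.

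At day 9, 40 of 41 tested members were higher in DKO preadipocytes, with a median log2 fold change of 0.39 against 0.00 over all tested genes. None was called by edgeR, against 1.24% of all genes, although 32 had an unadjusted p under 0.05 and 34 had DKO libraries above all WT libraries (22.5% of all genes). DESeq2 called 2 members and limma-voom none, and without DKO replicate 2 edgeR called 7. Cox7a1 was at 67.2, 66.8 and 68.9 CPM in WT and 107, 84.1 and 152 CPM in DKO libraries. Its WT libraries were close together and its DKO libraries spread widely above them (log2 fold change 0.72 ± 0.20, adjusted p = 0.0891, edgeR). Cox8b was at 4.22, 5.38 and 5.68 CPM in WT and 10.9, 3.56 and 15.3 CPM in DKO libraries, and DKO replicate 2 fell below all WT libraries (log2 fold change 0.92 ± 0.49, adjusted p = 0.282, edgeR). The same replicate was the lowest of the DKO libraries for the members together, at 1.28% of counts against 1.42% and 1.65%. Cox7a2l did not follow, with 0.02 ± 0.09 on the log2 scale. The adipocyte markers summed to between 34798 and 36348 CPM in WT and between 45653 and 53548 CPM in DKO libraries of day 9.

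**Figure D3:**
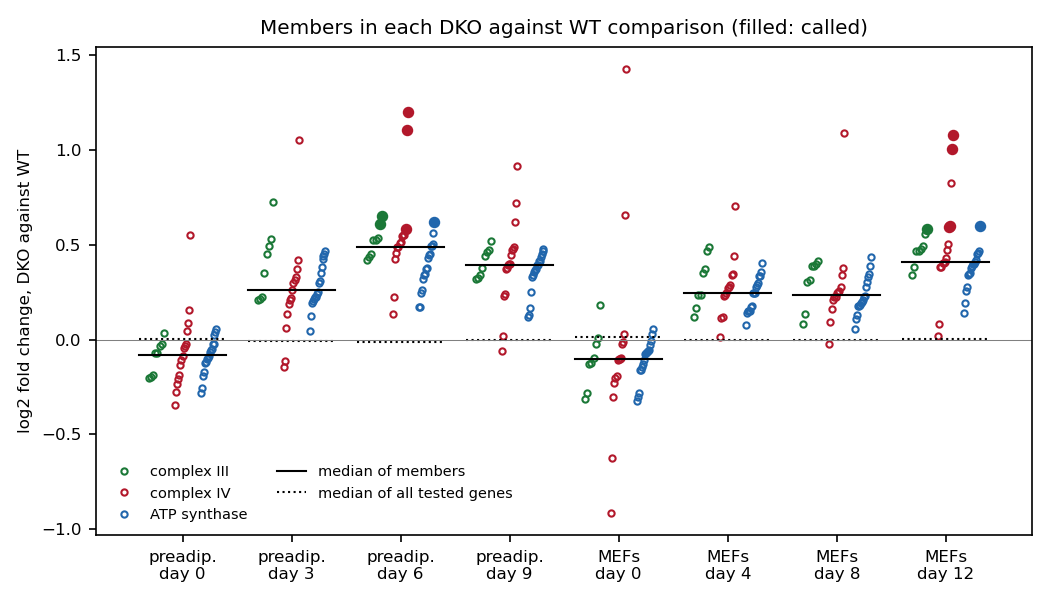
Log2 fold change of each tested member between DKO and WT cells in the 8 comparisons, coloured by complex, with filled points for called members, a solid line for the median of the members and a dotted line for that of all tested genes. The members' median is below 0 at day 0 and between 0.24 and 0.49 on the later days, while the median of all tested genes stays near 0.

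In MEFs the members again started slightly lower in DKO cells. At day 0, 33 of 40 were lower, with a median log2 fold change of -0.10. No member was called by edgeR (0.102% of all genes were) and none had an unadjusted p under 0.05, while 10 had DKO libraries below all WT libraries (10.3% of all genes). At day 4 all 38 tested members were higher (median 0.25), 0 were called by edgeR (0.0905% of all genes), 3 had an unadjusted p under 0.05 and 2 had libraries apart (5.29% of all genes). At day 8, 37 of 38 were higher (median 0.24), again with 0 called (0.0595% of all genes), 0 at an unadjusted p under 0.05 and 0 apart (8.78% of all genes). The medians of single refits at day 8 ran from 0.07 without DKO replicate 1 to 0.47 without DKO replicate 3. DESeq2 and limma-voom called no member at any of these days.

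At day 12 all 40 tested members were higher in DKO MEFs, with a median log2 fold change of 0.41 against 0.00 over all tested genes. Again 6 were called higher and none lower (3.92% of all genes were called higher and 4.05% lower), 36 passed the adjusted p alone, all higher (17.3% of all genes), and 36 had DKO libraries above all WT libraries (22.8% of all genes). Complex III had a median of 0.47 with all 8 members past the adjusted p, complex IV of 0.43 with 12 of 15, and ATP synthase of 0.39 with 16 of 17. The call at both thresholds covered Cox7a1, Cox4i2, Cox6b1, Cox5b, Uqcrfs1 and Atp5k. Their number fell to 3 without DKO replicate 2 and to 2 with limma-voom or with scaling by library size only. Chi-square per degree of freedom between the counts of replicates was 2.18 to 12.6 at day 12 and 2.16 to 157 at day 8. The counts passing at these days thus rest on unlike spreads.

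Cox7a1 was at 6.36, 7.90 and 6.87 CPM in WT and 14.7, 13.6 and 14.0 CPM in DKO MEFs at day 12. The libraries were apart, and the log2 fold change was 1.00 ± 0.11 (SE, adjusted p = 2.69e-06, edgeR), a call that held when any 1 library was left out. Of the 6 members called here and the 6 called in preadipocytes at day 6, which share no library, Cox7a1 was the only one in common. Most other calls in both lists lay just over the fold threshold, and this overlap depends on it. With the adjusted p alone 36 members passed here and 29 in preadipocytes at day 6, all higher. Cox6b1 was at 197, 200.0 and 199 CPM in WT and 300.2, 301 and 294 CPM in DKO MEFs, with a tight spread in both (log2 fold change 0.59 ± 0.04, adjusted p = 1.71e-08, edgeR). Uqcrfs1 was at 161, 158 and 154 CPM in WT and 234, 245 and 226 CPM in DKO MEFs (0.59 ± 0.04, adjusted p = 5.31e-08, edgeR), and its call was lost with DESeq2, limma-voom, library size scaling, no filter or the replicate block. Both genes had libraries that were well apart and lay just over the fold threshold.

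Atp5k, subunit e of ATP synthase, which takes part in joining the enzyme into dimers, was at 51.3, 53.3 and 56.1 CPM in WT and 79.7, 80.9 and 82.0 CPM in DKO MEFs (log2 fold change 0.60 ± 0.05, adjusted p = 1.59e-07, edgeR). Cox5b, a zinc-binding complex IV subunit, was at 66.7, 68.3 and 67.5 CPM in WT and 99.5, 117 and 88.6 CPM in DKO MEFs (0.60 ± 0.09, adjusted p = 0.00134, edgeR). All DKO libraries were above all WT libraries for both genes. Cox4i2 was the scarcest of the 6, at 0.285, 0.638 and 0.764 CPM in WT and 1.12, 1.17 and 1.34 CPM in DKO MEFs (1.08 ± 0.37, adjusted p = 0.0324, edgeR), and it kept its call in 2 of the 6 refits without 1 library. Its DKO libraries at day 0 were at 0.211, 1.06 and 1.30 CPM, so the levels of day 12 overlapped those of DKO MEFs before induction. At the flat end, Cox7a2l was at 169, 167 and 170.3 CPM in WT and 163, 169 and 177 CPM in DKO MEFs, which overlapped (0.02 ± 0.04, adjusted p = 0.794, edgeR).

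The paired isoforms show whether a difference between genotypes lay in the tissue form alone. Cox7a1 started low, at 1.31, 0.919 and 0.653 CPM in WT and 0.793, 0.896 and 0.580 CPM in DKO preadipocytes at day 0. From there it rose by 6.14 ± 0.17 (WT) and 7.23 ± 0.32 (DKO) on the log2 scale to day 9, and in MEFs by 2.98 ± 0.18 and 4.67 ± 0.35 to day 12 (adjusted p = 4.60e-08, 1.18e-05, 4.70e-09 and 1.40e-04, edgeR). Cox7a2 rose as well, from 62.9, 44.5 and 46.3 CPM to 195, 193 and 191 CPM in WT preadipocytes. Per kb of exon, Cox7a1 made up 3.17% ± 0.637 (SD, n = 3) of the sum of the pair in WT preadipocytes at day 0 and 38.3% ± 0.604 at day 9. In DKO preadipocytes its part was 2.97% ± 0.708 at day 0, 45.4% ± 3.29 at day 6 and 43.1% ± 3.60 at day 9, with 33.5% ± 2.07 in WT cells at day 6. In MEFs at day 12 it was 10.5% ± 1.10 (WT) and 15.4% ± 0.671 (DKO). These shares rest on exon lengths of 535 bases for Cox7a1 and 944 bases for Cox7a2. At day 6 in preadipocytes both forms were higher in DKO cells, Cox7a2 by 0.49 ± 0.11 (adjusted p = 0.0197, edgeR), but Cox7a1 by more. The log2 ratio of Cox7a1 to Cox7a2 (0.5 CPM added to both) was higher in DKO cells by 0.71 at day 6 and 0.29 at day 9 in preadipocytes and by 0.58 at day 12 in MEFs. In all of these every DKO library exceeded every WT library (p = 0.1 each, exact permutation test, two-sided), and 0.1 is the smallest p that 3 against 3 libraries allow. Over the 22 ratios tested in the 4 pairs, no adjusted p could therefore fall below it.

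Cox8b had no count in any preadipocyte library of day 0, nor in the WT libraries of day 3. Against a floor of 3 counts per library at day 0, its mean was at least 29.4-fold higher in WT and at least 78.1-fold higher in DKO preadipocytes at day 6, and at least 38.8-fold and 93.2-fold higher at day 9. In MEFs it was at least 7.85-fold (WT) and 15.1-fold (DKO) higher at day 12, when single libraries held between 0.57 and 2.0 CPM. Cox8a was at 148, 194 and 155 CPM in WT and 199.6, 237 and 232 CPM in DKO preadipocytes at day 6, without overlap (0.42 ± 0.11 on the log2 scale, adjusted p = 0.0331, edgeR). Per kb of exon, Cox8b made up only 3.84% ± 0.887 of its pair in WT and 6.08% ± 1.29 in DKO preadipocytes at day 6. The log2 ratio of Cox8b to Cox8a differed by 0.60 at day 6 (p = 0.2), 0.28 at day 9 (p = 0.6) and, in MEFs at day 12, 0.17 (p = 0.5, exact permutation tests, two-sided), with overlapping libraries. Cox7a1 thus took a far larger part of its pair than Cox8b did in the same libraries.

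**Figure D4:**
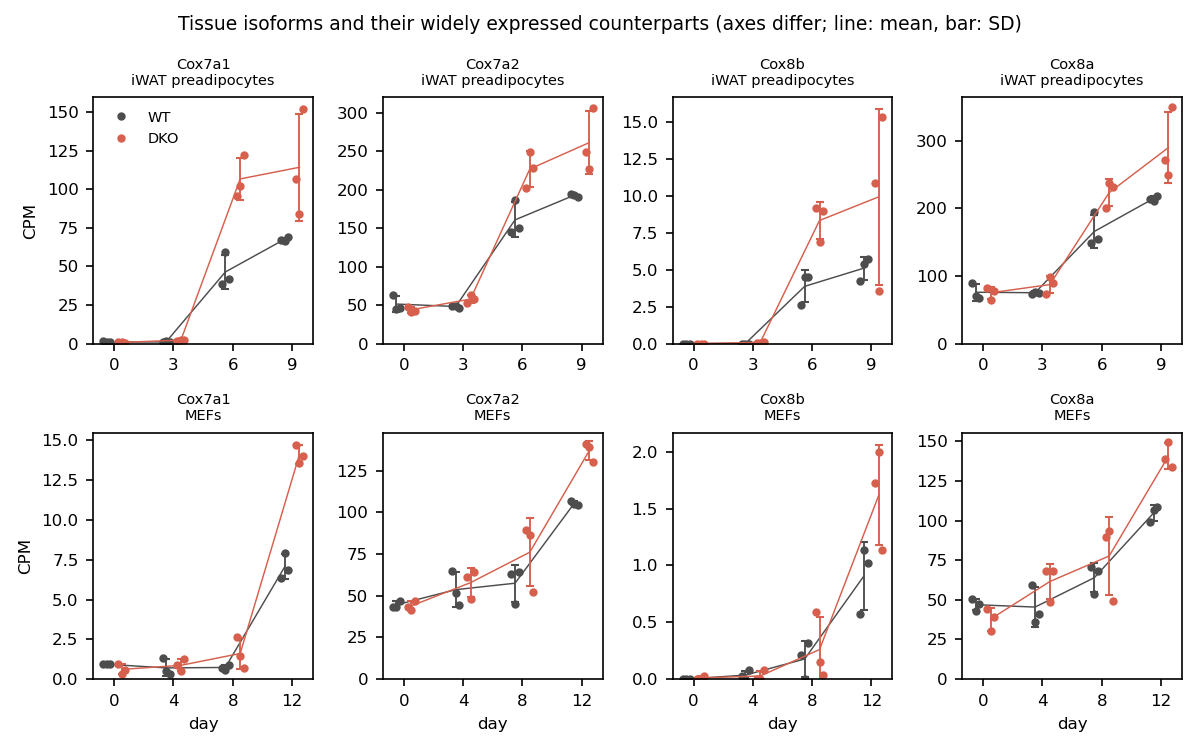
CPM of Cox7a1, Cox7a2, Cox8b and Cox8a in each library of preadipocytes (top) and MEFs (bottom) by day, with points for libraries, lines through means and bars for the SD of 3 libraries, on axes that differ between panels. Cox7a1 reaches between 38.4 and 152 CPM at days 6 and 9 in preadipocytes and at most 14.7 CPM in MEFs, while Cox8b stays at or below 15.3 CPM.

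The other isoform pairs were read in the same way. Cox6a2, the heart and muscle form of subunit 6a, had at most 55 counts in any library. Its part of the pair with Cox6a1 per kb of exon was 1.36% ± 0.209 in WT preadipocytes at day 0 and 0.406% ± 0.0212 at day 9. On this scale Cox6a2 itself stood at 1.75 ± 0.348 CPM at day 0 and 1.62 ± 0.158 CPM at day 9. The mean of Cox6a1 went from 126 to 397 CPM, so the lower share at day 9 went with more Cox6a1. At day 6 Cox6a2 was lower, at 0.306 ± 0.0343 CPM. The 27 skeletal muscle markers summed to between 118 and 159 CPM in the WT libraries of day 0. At day 9 they summed to between 8.80 and 17.4 CPM, and their part in the levels of either gene was not tested. In MEFs at day 12 the log2 ratio was lower in DKO cells by 0.63 without overlap (p = 0.1, exact permutation test, two-sided), at no more than 16 counts of Cox6a2 per library. This separation depends on the 0.5 CPM added to both genes. Without it the part of the pair overlapped, at 0.332%, 0.307% and 0.631% in WT and 0.269%, 0.359% and 0.102% in DKO libraries. Per kb of exon, Cox6a2 stood at 0.693 ± 0.265 CPM (WT) and 0.583 ± 0.352 CPM (DKO), and Cox6a1 at 165 ± 6.57 and 233 ± 22.2 CPM. The skeletal muscle markers were at 37.9 to 42.7 CPM in WT and 16.5 to 30.9 CPM in DKO libraries there. Their part in these levels was not tested. Cox4i2 made up 1.3% ± 0.291 of its pair with Cox4i1 in WT and 0.908% ± 0.0884 in DKO preadipocytes at day 9, and the log2 ratio was lower in DKO cells by 0.51 without overlap (p = 0.1, exact permutation test, two-sided). There Cox4i1 differed by 0.49 ± 0.15 between the genotypes and Cox4i2 by -0.06 ± 0.22 on the log2 scale (adjusted p = 0.0945 and 0.892, edgeR). Cox6b1 rose in WT preadipocytes by 1.80 ± 0.07 from day 0 to day 9 (adjusted p = 2.15e-07, edgeR), against -0.75 ± 0.31 for Cox6b2.

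**Figure D5:**
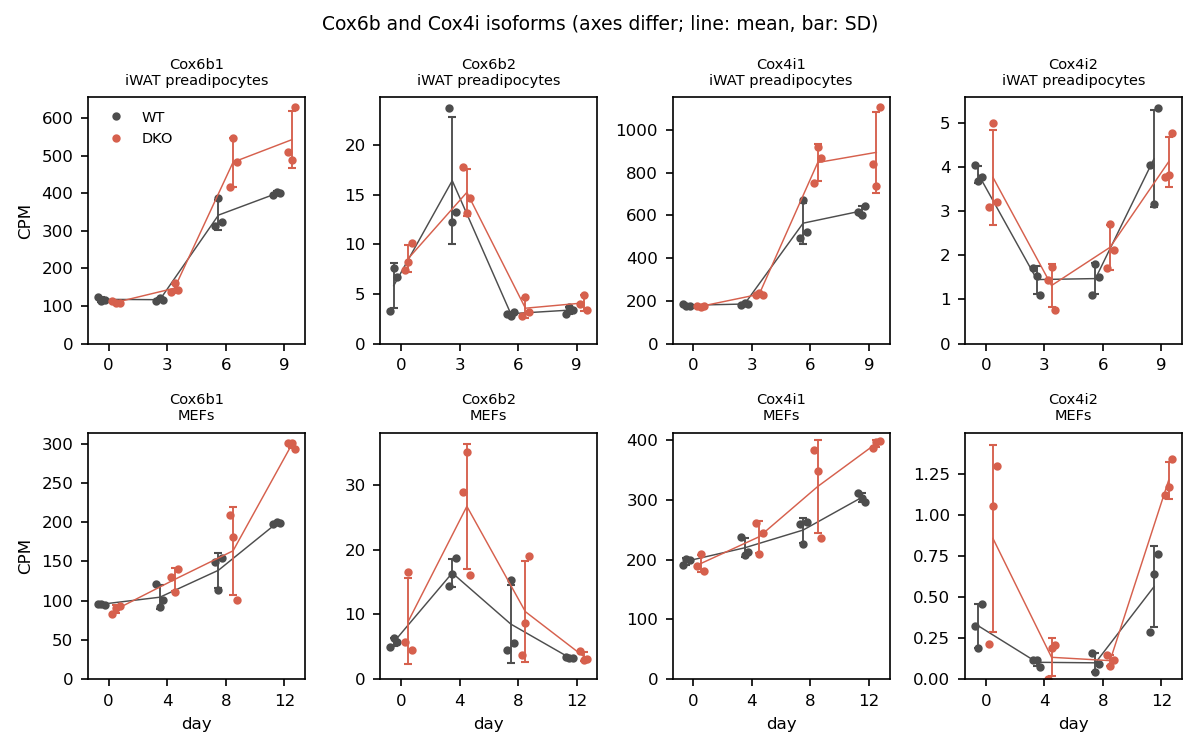
CPM of Cox6b1, Cox6b2, Cox4i1 and Cox4i2 in each library of preadipocytes (top) and MEFs (bottom) by day, with points for libraries, lines through means and bars for the SD of 3 libraries, on axes that differ between panels. Cox6b2 is highest at day 3 or 4 and Cox4i2 of preadipocytes is lowest at days 3 and 6, while Cox6b1 and Cox4i1 climb.

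The DKO effects of different days were then set against each other with an interaction term in edgeR. In preadipocytes the effect at day 6 exceeded that at day 0 in 20 of 41 members and fell short in none (adjusted p under 0.05 in edgeR's test, where 2.83% of all genes were higher and 1.71% lower). The median difference was 0.62 on the log2 scale. The 3 with the smallest p were Uqcrc2 (0.66 ± 0.13, SE), Cox5a (0.83 ± 0.16) and Atp5b (0.78 ± 0.16), with adjusted p = 0.0249, 0.0249 and 0.0287, and Cox7a1 had 1.57 ± 0.37 (adjusted p = 0.0419, edgeR). The count fell to 1 with the replicate number as a block, and to 0 without WT day 0 replicate 1, WT day 6 replicate 1, WT day 6 replicate 3 or DKO day 6 replicate 3, to 1 without DKO day 0 replicate 2 or 3, and to between 3 and 7 without WT day 0 replicate 2 or 3, DKO day 0 replicate 1 or DKO day 6 replicate 2. Between days 6 and 9 no member's effect differed by edgeR, with 0 at an unadjusted p under 0.05, and the median difference was -0.07 (0% of all genes called). Neither the replicate block (0.273% of all genes called, 2 members at an unadjusted p under 0.05) nor DESeq2 (0.208% of all genes) called a member there.

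In MEFs, where this comparison was added after the data were seen, the DKO effect at day 12 exceeded that at day 0 in 30 of 41 members and fell short in none (2.02% of all genes higher, 0.33% lower), with a median of 0.52. The 3 with the smallest p were Cox6b1 (0.72 ± 0.08), Uqcr11, a small complex III subunit (0.64 ± 0.09), and Cox5a (0.61 ± 0.09), with adjusted p = 0.00396, 0.00631 and 0.00716 in edgeR's test. The block lowered the count to 4, and leaving out a day 0 WT library to between 5 and 9 and a day 12 library of either genotype to between 9 and 16. Between days 8 and 12 no member's effect differed by edgeR (0% of all genes called), with 1 at an unadjusted p under 0.05, nor by DESeq2 (0.6% of all genes called). Uqcr11 and Cox7b, a small complex IV subunit, were also among the members with the smallest p from day 0 to day 12 in DKO MEFs, at 2.19 ± 0.09 and 1.88 ± 0.08 (adjusted p = 1.02e-05 and 1.30e-05, edgeR).

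Other genes of the pathway were read from a list of 46 genes, which holds cytochromes, assembly factors and the subunits encoded in mitochondrial DNA. At day 6 in preadipocytes 5 of 44 tested were called higher in DKO cells and none lower (5.03% of all genes higher, 6.53% lower). With the adjusted p alone 23 were higher (11.6% of all genes) and 1 lower (9.96% of all genes), and the median log2 fold change was 0.37. The 5 were Cyc1, a cytochrome of complex III (0.66 ± 0.12), Cycs, cytochrome c itself (0.67 ± 0.11), Lrpprc, Taco1 and Lyrm7 (1.99 ± 0.20). Lrpprc, which stabilizes mitochondrial messengers, was at 0.59 ± 0.13 and Taco1, needed to translate mt-Co1, at 0.67 ± 0.09. Lyrm7, an assembly factor that guides the Uqcrfs1 protein into complex III, was higher in all DKO libraries at every day in both cell types, with log2 fold changes between 1.24 and 1.99 and a call at days 3, 6 and 9 of preadipocytes and at day 12 of MEFs. At day 0 it was at 1.79 ± 0.27 in preadipocytes and 1.37 ± 0.35 in MEFs (adjusted p = 0.0989 and 0.427, edgeR). It was singled out after its values were seen. Of the ATP synthase subunits encoded in mitochondrial DNA, mt-Atp6 stood at 0.00 ± 0.13 and mt-Atp8 at 0.07 ± 0.14 at day 6, and of those of complex IV mt-Co1 at 0.54 ± 0.14 (adjusted p = 0.987, 0.730 and 0.0302, edgeR).

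At day 12 in MEFs 2 of 44 were called higher, Cycs (0.69 ± 0.04) and Lyrm7 (1.90 ± 0.19), a share near that of all genes (3.92%). With the adjusted p alone 27 passed, all higher (17.3% of all genes), with a median of 0.34. Among 16 regulators of mitochondrial genes, 3 of 15 tested were called higher in DKO preadipocytes at day 6 (5.03% of all genes), namely Ppargc1a, a coactivator of mitochondrial biogenesis (0.79 ± 0.13), Esrrg, a nuclear receptor that acts on respiratory genes (1.67 ± 0.32), and Ppara, a receptor that drives fatty acid oxidation (1.47 ± 0.24). In MEFs at day 12 Ppara (1.13 ± 0.20) and Ppargc1b (0.86 ± 0.12) were called higher and Prdm16, a regulator of brown fat identity, lower (-0.61 ± 0.11), of 14 tested (3.92% of all genes higher, 4.05% lower). Nrf1 and Gabpa, whose products bind many promoters of respiratory subunits, differed by -0.01 ± 0.08 and 0.14 ± 0.10 at day 6 and did not pass the test.

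Markers of cell types moved with the members' differences at day 6 in preadipocytes and day 12 in MEFs. At day 0 in MEFs most members were slightly lower in DKO cells, while the adipocyte markers were higher in all DKO than in all WT libraries. At day 6 in preadipocytes the 16 adipocyte markers, all above 3 counts, summed to between 28716 and 34752 CPM in WT and between 36824 and 46803 CPM in DKO libraries. The brown adipocyte markers, a list that itself holds Cox7a1 and Cox8b, summed to between 394 and 545 CPM in WT and between 1078 and 1390 CPM in DKO libraries. The 10 fibroblast markers went the other way, with 17446 to 21362 CPM in WT and 7438 to 10420 CPM in DKO libraries, as did the 10 macrophage markers, with 5961 to 10170 CPM in WT and 2174 to 4776 CPM in DKO libraries. In MEFs at day 12 the ranges were 23477 to 23650 (WT) and 35163 to 37937 CPM (DKO) for adipocyte markers, 29179 to 30028 and 17487 to 19668 CPM for fibroblast markers and 4740 to 4757 and 2984 to 3440 CPM for macrophage markers. The part of these cell types in the differences of the members was not tested. Since Cox7a1 and Cox8b are also muscle genes, 27 skeletal muscle markers were summed, and they were at 4.63 to 6.65 CPM in WT and 4.62 to 6.44 CPM in DKO preadipocytes at day 6, with Ckm, Myod1 and Myog at 0 in both. The 11 cardiac markers summed to at most 3.04 CPM there, and the 7 endothelial markers to between 4.87 and 10.6 CPM.

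The promoters of the members were searched for 3 short motifs on both strands in the 250 bases before the start. GCATGCG, part of the site of Nrf1, was in 5 of the 31 members with an entry (16.1%) against 3.43% of all 27025 genes with an entry, namely Atp5g2, Atp5j, Atp5k, Atp5l and Cox6a1. CCGGAAG, part of the site of Gabpa and other ETS factors, was in 8 (25.8% against 7.83%), namely Atp5e, Atp5h, Atp5j, Atp5l, Cox6a1, Cox6b1, Uqcr11 and Uqcrh. AAGGTCA, a site of estrogen-related receptors, was in Atp5g3 and Atp5l (6.45% against 4.7%). GCATGCG and CCGGAAG each hold a CG pair, and AAGGTCA holds none. The windows of the members hold more CG pairs (median of 13 against 6 over all promoters). The shares were not matched for this, and no enrichment was tested. Atp5k and Cox6b1, both called in MEFs at day 12, are shown with the motif in capitals, which in Atp5k covers the overlapping matches on both strands and in Cox6b1 reads CTTCCGG, the opposite strand of CCGGAAG.
Atp5k (chr5:108434400-108434649, minus strand): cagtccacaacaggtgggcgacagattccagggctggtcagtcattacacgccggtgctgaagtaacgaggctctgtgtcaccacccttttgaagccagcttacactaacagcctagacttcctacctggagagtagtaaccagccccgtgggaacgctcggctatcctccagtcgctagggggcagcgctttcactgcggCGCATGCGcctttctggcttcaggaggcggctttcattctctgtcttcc
Cox6b1 (chr7:30626115-30626364, minus strand): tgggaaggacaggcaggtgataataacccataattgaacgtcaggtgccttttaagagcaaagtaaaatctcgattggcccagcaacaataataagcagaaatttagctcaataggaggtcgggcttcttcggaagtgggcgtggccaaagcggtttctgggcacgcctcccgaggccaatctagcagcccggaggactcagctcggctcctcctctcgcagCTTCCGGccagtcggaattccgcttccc
The match lies 49 to 42 bases before the RefSeq start in Atp5k and 28 to 22 bases before it in Cox6b1. GENCODE places these starts further upstream, at 108434448 for Atp5k and 30626151 for Cox6b1, so both matches lie within its genes. None of the 3 motifs was in the windows of Cox7a1, Cox8b, Cox7a2 and Cox8a shown above, which says only that these letters are not there.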

How the data were processed

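The authors trimmed reads (bcl2fastq 2.17, Cutadapt 1.18), aligned them to mm10 with STAR 2.7.0f and deposited the expected counts of RSEM 1.3.0 for each gene, without normalization, in 1 table per cell type. The labels name polyA RNA and the study's methods a total RNA kit, and which holds was not settled. RSEM divides reads that match several genes, so levels of members with close copies are estimates. Expected counts were rounded and analysed with edgeR 4.0.16 (R 4.3.3), using filterByExpr, TMM and the robust quasi-likelihood test on the 6 libraries of a comparison, or the 12 of an interaction, with p-values adjusted over all tested genes (Benjamini-Hochberg). Called means an adjusted p under 0.05 and a fold of at least 1.5, and for interactions the adjusted p alone. Scripts were tested on simulated data. Gene positions and exon lengths come from GENCODE M21 and promoters from RefSeq. The alternatives were DESeq2 1.42.0, limma 3.58.1 (voom with quantile normalization), scaling by library size, no filter, no fold threshold, a replicate block, another added CPM and leaving out each library. Same-numbered libraries of days 6 and 9 in preadipocytes had correlations of 0.13 to 0.48 in all pairs. In DKO cells these were 0.39 to 0.48, against at most 0.12 for unlike numbers, so the numbers pair those days there. In WT cells replicate 2 of day 6 and replicate 3 of day 9 had 0.17, above the lowest same-numbered pair at 0.13, and a pairing was not settled. In that comparison the block called no member either (42 of all genes against 0). At day 3 in preadipocytes same-numbered WT and DKO libraries had correlations of 0.02 to 0.57. The block raised the calls over all genes there from 51 to 278, and whether the numbers pair these libraries was not settled. In the remaining comparisons the libraries are known to share only a number. Replicates of a group differed by more than counting noise, but unevenly (chi-square per degree of freedom of 2.16 to 168). It was 2.18 to 3.58 between WT and 3.01 to 12.6 between DKO MEFs of day 12. Between DKO MEFs it was 107 to 168 at day 0 and up to 157 at day 8. Counts of calls at different days thus rest on unlike spreads. Named are, in each comparison, up to 3 called members with the smallest p in each direction, and members whose values the isoform pairs or the ends of a range turn on. The members and lists were chosen with earlier results of these data known. A group at or under 3 counts in each library has no fold.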

Additional observations from a re-analysis of the deposited data

Results flagged for a closer look

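The DKO effect on the members differed between days in 2 tests of the difference itself. In preadipocytes it was larger at day 6 than at day 0 in 20 members, led by Uqcrc2 (difference of 0.66 on the log2 scale), Cox5a (0.83) and Atp5b (0.78). In MEFs it was larger at day 12 than at day 0 in 30 members, led by Cox6b1 (0.72), Uqcr11 (0.64) and Cox5a (0.61). Both used edgeR's interaction test with adjusted p under 0.05, and both counts depend on single libraries. No group has enough libraries for a search for outlying samples.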

How the results depend on the processing

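In preadipocytes at day 3, where no member was called, DESeq2 and the replicate block each called 1. At day 6 the 6 calls became 2 with library size scaling, 29 without the fold threshold and 1 to 20 when 1 library was left out. At day 9 the 0 calls became 2 with DESeq2 and up to 7 (from 0) when 1 library was left out. In MEFs at day 12 the 6 calls became 2 with library size scaling or limma-voom, 36 without the fold threshold and 3 to 7 when 1 library was left out. The interaction of days 6 and 0 in preadipocytes fell from 20 members to 13 without a filter, to 1 with the replicate block and to between 0 and 27 when 1 library was left out, and that of days 12 and 0 in MEFs from 30 to 12 with library size scaling, to 4 with the block and to between 5 and 33. The block changed no other count by over 1.5 times. Its numbers clearly pair only days 6 and 9 of DKO preadipocytes. A pairing of these days in WT preadipocytes, and of the genotypes at day 3 of preadipocytes, was not settled. Elsewhere, with correlations as low as -0.73, a call lost under it is not read as a weaker effect. The cause of these changes was not tested.

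The DKO minus WT difference in the log2 ratio of Cox7a1 to Cox7a2 changed sign at day 0 of preadipocytes (0.01 to -0.070 with 0.1 CPM added, and -0.12 to 0.10 when 1 library was left out) and at day 4 of MEFs (-0.0020 to 0.31). So did that of Cox6a2 to Cox6a1 in preadipocytes at day 0 (-0.028 to 0.11), day 6 (-0.11 to 0.43) and day 9 (-0.75 to 0.10), and that of Cox4i2 to Cox4i1 at day 0 (-0.23 to 0.11). In these 6 comparisons of ratios the groups overlapped.

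The members' median kept its sign in all 8 comparisons of DKO with WT, and library size scaling lowered it to 0.39 at day 6 in preadipocytes and to 0.35 at day 12 in MEFs. Over 32 results of single named members and 408 alternatives, the direction was kept in 408 and the call was lost in 64. Depth limits Cox8b before day 6, Cox6a2 and Cox4i2 of MEFs.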
